A study of Rattus norvegicus with 20 samples.

Results

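Expression of 9 genes that are commonly used as markers of T and B lymphocytes was followed through the injured rat central nervous system: Cd3e, Cd3d, Cd3g, Cd8a, Cd8b, Cd2, Cd5, Cd79b and Gzmb. They were taken by name from the 30443 genes of the expression table; Gzmb had 2 entries with identical values, of which the first was kept. RNA sequencing covered 20 libraries, from 5 regions of 4 animals. All were female wild-type Long-Evans rats of about 6 to 8 months, and every animal, control or stimulated, carried both a hemicontusion at cervical level 4 made with a displacement of 0.7 mm and an electrode array implanted 2 weeks later into the motor cortex opposite the injured side, under dexamethasone cover. After a threshold test 1 week after implantation, 2 stimulated animals received 1 week of cortical stimulation, at 10 Hz and 80% of the movement threshold, in cycles of 5 min on and 2 min off for 5 hours a day. The 2 control animals were connected without current. No uninjured and no unimplanted animal was among them, so no level can be set against that of intact tissue. Region 1 was subcortical white matter under the electrodes, region 2 the matching block of the opposite hemisphere, region 3 the cord rostral to the injury (cervical levels 2 to 4), region 4 the lesion epicenter, and region 5 the caudal cord, placed by the sample labels at levels 4 to 6 and slightly lower by the series description.

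T lymphocytes recognise antigen through a receptor whose signal is carried by the CD3 chains; Cd3e, Cd3d and Cd3g encode 3 of them, and mature conventional T cells carry all of these on the surface. Cd8a and Cd8b encode the chains of CD8, the coreceptor of cytotoxic T cells, Cd2 and Cd5 encode surface molecules that adjust activation, Cd79b encodes a signalling chain of the B cell receptor, and Gzmb encodes granzyme B, a protease of cytotoxic granules. In the rat, CD8 is also found on natural killer cells and on activated macrophages, and CD4 on macrophages and microglia, so neither coreceptor is specific to T cells in this species. After a contusion the cord is filled first with neutrophils and macrophages, and lymphocytes are known to enter and remain in smaller numbers for weeks.

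Values were FPKM, the fragments mapped to a gene scaled by its transcript length and by the mapped reads of the library, in which everything under 0.1 had been set to 0.1; this value is called the floor. FPKM is per length, so levels of different genes can be compared, but the reads behind each gene's value were not used here and no counting interval can be given. In homogenised tissue, fewer cells of a type and less RNA per cell cannot be told apart.

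The white matter of stimulated animal 2 stood apart from that of the other 3 animals, and results that rest on it are given with and without it. In region 1, 7 of the 9 genes were at least 2-fold above the highest of the other 3 libraries in this animal, against 4.35% of all 30443 genes in the table. In region 2 this held for 8 of the 9, against 5.58%, and for 7 genes it held in both regions, against 2.83%. In its 3 cord libraries 1 or 2 of the 9 genes were above the floor, and 1, Cd8a in region 5, passed the same 2-fold limit, at 1.22 FPKM against at most 0.37. Of the 9 genes, 6 reached 1 FPKM in at least 1 library and entered the tests over 15210 genes, but Cd3e, Cd3d, Cd2 and Cd79b did so through the white matter of stimulated animal 2 alone. Cd3g, Cd5 and Gzmb were below that limit and could not pass. In the main fits, counts of the 9 genes that passed therefore rest on 6 tested genes. The shares of all genes set beside them are over the 15210 tested. Regional identity was otherwise as labelled in the cord, where 4 spinal neuron markers summed to between 83.4 and 144 FPKM, but 4 cortical neuron markers summed to between 256 and 375 FPKM in the white matter blocks, which were dissected to leave out cortex.

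**Figure D1:**
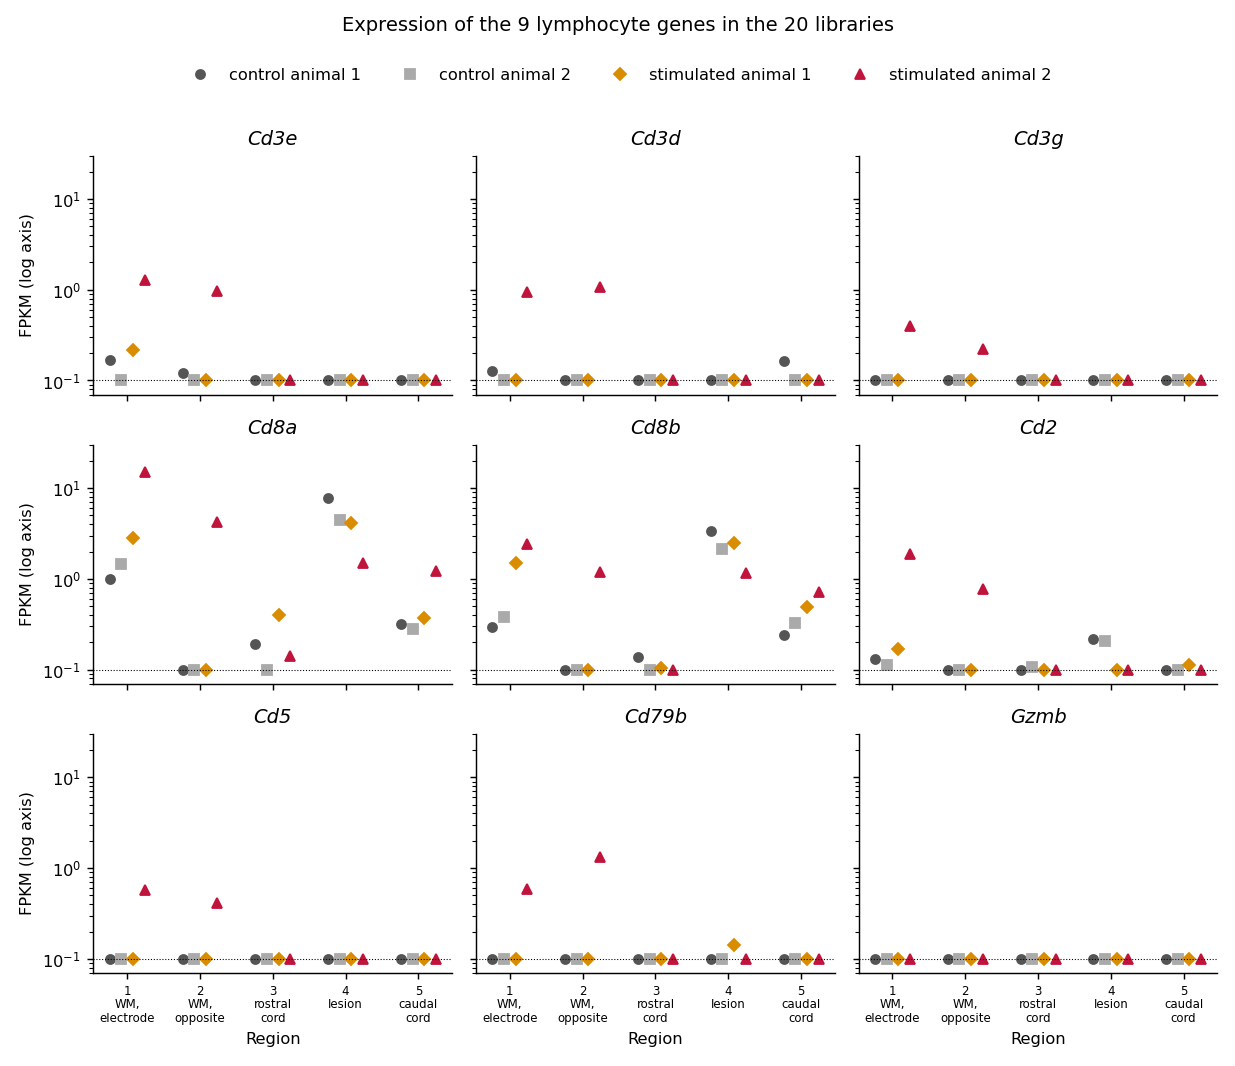
FPKM (log axis) of the 9 genes in each of the 20 libraries, by region; each point is 1 library, colour and shape give the animal, WM is white matter and the dotted line is the floor of 0.1. Cd8a and Cd8b are above 1 FPKM in all 4 lesion libraries, whereas the 3 Cd3 genes are at the floor there and are at 0.224 to 1.28 FPKM in the white matter of stimulated animal 2.

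The CD3 genes were at the floor in all 4 lesion libraries. Cd3e, the chain most used to mark T cells, was listed at the floor in all 12 cord libraries. In region 1 its level was 0.169 and 0.1 FPKM in control animals 1 and 2 and 0.215 and 1.28 in stimulated animals 1 and 2; in region 2 it was 0.12, 0.1, 0.1 and 0.965 in the same order. Only stimulated animal 2 was therefore near 1 FPKM, on both sides of the brain. Cd3d showed the same distribution, with 0.937 FPKM in region 1 and 1.07 in region 2 of that animal, 0.127 in region 1 of control animal 1, and 0.164 in the caudal cord of control animal 1 as its sole cord value above the floor. Cd3g was above the floor in only 2 libraries, at 0.398 and 0.224 FPKM in regions 1 and 2 of stimulated animal 2. The name lymphocyte genes thus goes against the data at the lesion, where the chains that define T cells were at the floor while Cd8a and Cd8b were not; the group is named here by its genes and not as a cell population. A level under 0.1 FPKM in a block of cord does not show that no T cell was present.

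The 3 CD3 genes lie next to each other in the order Cd3g, Cd3d, Cd3e in the RefSeq annotation of build GRCr8, and Cd8b and Cd8a are separated there only by the tubulin pseudogene Tuba1b-ps8. The reads had been mapped to the older build Rnor6, so GRCr8 positions serve only to show the sequences. RefSeq promoter windows, from 250 bases before to 50 bases after the start of the gene, were matched for 7 of the 9 genes, all but Cd8b and Cd79b. The 3 CD3 genes were above the floor together only in the white matter of stimulated animal 2, whereas Cd8a was also above it in every lesion. The windows of Cd3e, Cd3d, Cd3g and Cd8a read as follows, 5′ to 3′ on the strand of the gene. Capitals mark AGGAAG (an ETS-type core) or TGTGGT (a RUNX-type core) on either strand.
Cd3e promoter, chr8:54211721-54212020, minus strand: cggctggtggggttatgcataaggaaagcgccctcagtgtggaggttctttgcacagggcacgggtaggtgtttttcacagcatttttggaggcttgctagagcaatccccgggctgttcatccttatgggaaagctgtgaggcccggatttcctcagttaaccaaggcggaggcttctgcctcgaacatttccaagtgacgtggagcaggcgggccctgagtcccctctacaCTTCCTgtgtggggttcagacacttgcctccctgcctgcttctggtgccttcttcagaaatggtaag
Cd3d promoter, chr8:54185269-54185568, plus strand: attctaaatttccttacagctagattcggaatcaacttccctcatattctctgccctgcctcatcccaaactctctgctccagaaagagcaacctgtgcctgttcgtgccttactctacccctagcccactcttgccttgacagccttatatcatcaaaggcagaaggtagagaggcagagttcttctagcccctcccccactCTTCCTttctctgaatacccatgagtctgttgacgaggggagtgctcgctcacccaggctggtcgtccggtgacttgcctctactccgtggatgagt
Cd3g promoter, chr8:54183869-54184168, minus strand: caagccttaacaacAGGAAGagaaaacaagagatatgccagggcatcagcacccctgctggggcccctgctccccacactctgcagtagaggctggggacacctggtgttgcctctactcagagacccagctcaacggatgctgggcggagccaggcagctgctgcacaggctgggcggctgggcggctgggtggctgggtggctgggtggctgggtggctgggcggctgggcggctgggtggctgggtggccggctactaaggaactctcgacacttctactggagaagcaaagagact
Cd8a promoter, chr4:104923866-104924165, plus strand: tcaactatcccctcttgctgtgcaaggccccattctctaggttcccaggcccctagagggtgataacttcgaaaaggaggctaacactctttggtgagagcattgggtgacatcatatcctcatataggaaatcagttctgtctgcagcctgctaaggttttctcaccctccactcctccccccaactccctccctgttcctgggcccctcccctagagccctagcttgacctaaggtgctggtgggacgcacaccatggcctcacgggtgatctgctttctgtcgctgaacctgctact
AGGAAG occurred in 5 of the 7 windows, Cd3e, Cd3d, Cd3g, Cd5 and Gzmb, and in 34.5% of the 33469 windows of the table. TGTGGT occurred in 2, Cd2 and Gzmb, against 17.3% of all windows, the GATA-type letters AGATAA in 0 against 11.6%, and TATAAA in 1 against 14.2%. The 3 CD3 windows hold an AGGAAG match each, and the Cd8a window holds neither of the capitalised cores. These are letter matches and were not tested as binding sites.

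Cd8a and Cd8b were the only 2 of the 9 genes well above the floor at the injury. Cd8a, which encodes the alpha chain, was at 7.82 and 4.41 FPKM in the lesion of control animals 1 and 2 and at 4.15 and 1.49 in stimulated animals 1 and 2. Cd8b, the beta chain, was at 3.39, 2.13, 2.49 and 1.16 in the same order. All 4 lesions thus held both chains, with the lowest level of each in stimulated animal 2. Rostral to the lesion Cd8a was 0.192, 0.1, 0.396 and 0.14 FPKM, and Cd8b did not exceed 0.137. Caudally Cd8a was 0.315, 0.278, 0.37 and 1.22, and Cd8b was 0.242, 0.33, 0.494 and 0.714, and stimulated animal 2 was the highest for both. In the white matter under the electrodes Cd8a was 1.01, 1.44, 2.82 and 14.9, the last being the highest level of any of the 9 genes in any library, and Cd8b was 0.297, 0.378, 1.51 and 2.43. On the opposite side both were at the floor in the 3 other animals, against 4.2 FPKM of Cd8a and 1.18 of Cd8b in stimulated animal 2, which is at least 42-fold and at least 11.8-fold higher.

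By the median over animals both genes followed the order lesion, region 1, caudal cord, rostral cord, region 2. Medians of Cd8a were 4.28, 2.13, 0.342, 0.166 and 0.1 FPKM, and those of Cd8b were 2.31, 0.944, 0.412, 0.103 and 0.1. By the mean, region 1 came first for Cd8a at 5.05 ± 6.64 (SD, n = 4), against 4.47 ± 2.59 at the lesion, through stimulated animal 2; without it the means were 1.76 ± 0.94 and 5.46 ± 2.05 (SD, n = 3). Of neighbours in this order, in all 20 libraries lesion and region 1 did not differ beyond their spread for either gene (log2 difference 0.45 ± 1.03 SE, adjusted p = 0.734 for Cd8a, and 1.42 ± 0.73, adjusted p = 0.113 for Cd8b), and 0 of the 9 genes passed where 52.6% of all genes did. Without stimulated animal 2 both were higher at the lesion, by 1.71 ± 0.45 (adjusted p = 0.00522) and 2.24 ± 0.47 (adjusted p = 0.00116). Cd3e was lower there by 0.62 (adjusted p = 0.0193), which makes 3 of 9 against 62.7%. Cd3e had entered the tests through the animal left out and was at most 0.215 FPKM in the other animals. Nothing is read from its call. Region 1 exceeded the caudal cord for Cd8a by 2.65 ± 1.03 (adjusted p = 0.0346), a call that was lost on leaving out any 1 of the other 3 animals (adjusted p from 0.07 to 0.125), and not for Cd8b (0.97 ± 0.73, adjusted p = 0.272); 1 of 9 genes passed against 58.3% of all genes. Rostral cord and region 2 were not separated for either (adjusted p = 0.702 and 0.391), with 0 of 9 genes against 56.8%.

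The comparisons within the cord show how these genes differed between the lesion and the cord around it. With no uninjured animal they do not show how far injury raised them. Between lesion and rostral cord the log2 difference was 4.40 ± 1.03 (SE) for Cd8a, 21.1-fold between geometric means, with an adjusted p of 0.00672, and 4.28 ± 0.73 for Cd8b, 19.5-fold, with an adjusted p of 0.000798. Both were higher in 4 of 4 animals, by 3.39 to 5.46 on the log2 scale for Cd8a and by 3.54 to 4.63 for Cd8b. Thus 2 of the 9 genes, 6 of them tested, passed, against 19.6% of all genes tested, or 6.78% counting only those higher at the lesion. Some rostral values were at the floor, so these differences are lower bounds in those animals. Without stimulated animal 2 both passed again (background 32.3%), as they did in the 12 cord libraries alone (background 31.5%). Cd2 also passed without that animal (log2 difference 0.69, adjusted p = 0.0444). Cd2 had entered the tests through the white matter of the animal left out and was at most 0.217 FPKM in the others. Nothing is read from its call. The Cd8a call was lost without control animal 1 or control animal 2 (adjusted p = 0.0726 and 0.106), with differences of 4.09 and 4.05.

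Between lesion and caudal cord Cd8a differed by 3.10 ± 1.03 (adjusted p = 0.0653) and Cd8b by 2.38 ± 0.73 (adjusted p = 0.0516), so that by limma 0 of the 9 genes passed (2 at an unadjusted p under 0.05) against 7.99% of all genes, although both were higher at the lesion in 4 of 4 animals. With the animal as a block both passed (adjusted p = 0.0448 and 0.0368), as they did in the 12 cord libraries alone (adjusted p = 0.0148 and 0.00942, background 16.2%) and without stimulated animal 2 (adjusted p = 0.000755 and 0.00638, background 7.21%). In stimulated animal 2 the lesion exceeded the caudal cord by only 0.29 for Cd8a and 0.71 for Cd8b, against at least 3.49 and 2.33 in the other 3. Between caudal and rostral cord the differences were 1.30 ± 1.03 (adjusted p = 0.433) and 1.90 ± 0.73 (adjusted p = 0.132), and 0 of the 9 genes passed (1, Cd8b, at an unadjusted p under 0.05) against 4.32% of all genes. In the 12 cord libraries alone Cd8b passed (adjusted p = 0.00977, background 16.9%).

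**Figure D2:**
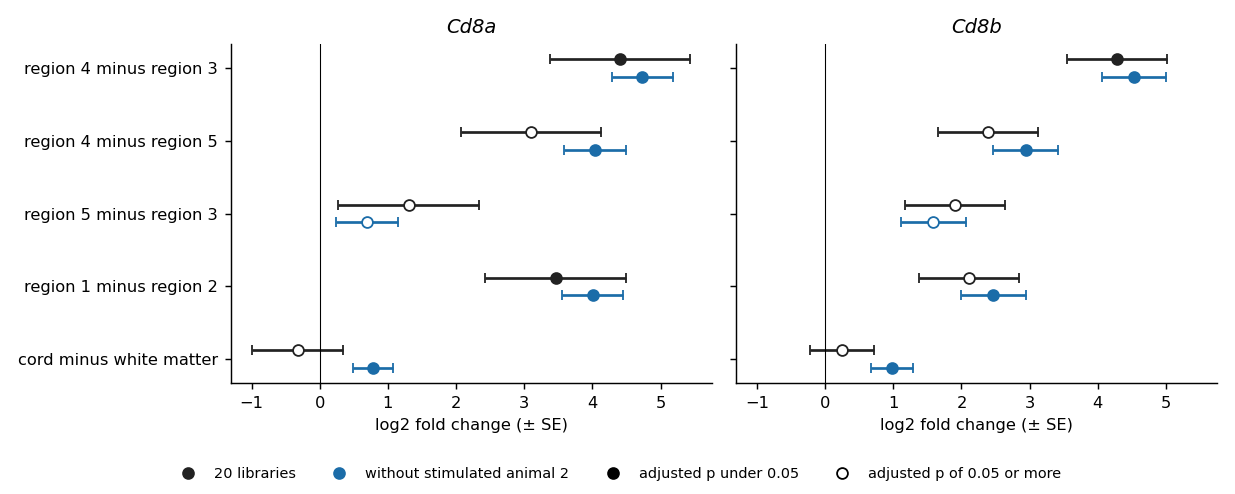
Log2 differences of Cd8a and Cd8b between regions (points) with their standard errors (bars), in all 20 libraries (black) and without stimulated animal 2 (blue); filled points have an adjusted p under 0.05. Lesion against rostral cord passes in both settings, lesion against caudal cord without stimulated animal 2 only, and cord against white matter changes sign for Cd8a.

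In the brain, Cd8a was higher under the electrodes than in the opposite hemisphere in 4 of 4 animals, by 1.83 to 4.82 on the log2 scale, with a mean difference of 3.46 ± 1.03 (adjusted p = 0.0446). Cd8b was also higher in 4 of 4, by 2.11 ± 0.73 (adjusted p = 0.0782), and 1 of the 9 genes passed against 8.61% of all genes. Without stimulated animal 2 both passed, at 4.00 (adjusted p = 7.42e-05) and 2.47 (adjusted p = 0.0022), with a background of 24.2%. Both genes were at the floor in region 2 of all 3 remaining animals. The differences are therefore lower bounds in those animals, and region 2 adds no spread to this fit. Leaving out any 1 of the other 3 animals ended the Cd8a call (adjusted p from 0.196 to 0.375). Between the 3 cord regions and the 2 white matter regions only Cd3e passed, against 72.2% of all genes. Its level was lower in the cord by 1.13 ± 0.47 on the log2 scale (adjusted p = 0.0366). Cd3e had entered the test through the white matter of stimulated animal 2, on the side then called higher. Every cord library was at the floor, so Cd3e could not come out higher in the cord. The call was also lost without control animal 1 or stimulated animal 1, and nothing is read from it. Without stimulated animal 2 Cd3e was lower by 0.35 (adjusted p = 0.0279), at no more than 0.215 FPKM in any library, and nothing is read from that call. Cd8a and Cd8b were then higher in the cord by 0.79 (adjusted p = 0.0257) and 0.98 (adjusted p = 0.0104), making 3 of 9 against 77.3%. With stimulated animal 2, Cd8a had been lower by 0.32 (adjusted p = 0.675).

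The remaining genes were near or at the floor. Cd2, an adhesion and costimulatory receptor of T and natural killer cells, was at 1.88 FPKM in region 1 and 0.779 in region 2 of stimulated animal 2 and between 0.1 and 0.167 in the other 6 white matter libraries. At the lesion it was 0.217 and 0.207 FPKM in the 2 control animals and at the floor in both stimulated animals. Cd5 was above the floor only in stimulated animal 2, at 0.58 FPKM in region 1 and 0.416 in region 2. Cd79b, the B cell member, was at 0.585 and 1.32 in those 2 libraries, at 0.142 in the lesion of stimulated animal 1, and at the floor in the other 17. Gzmb was listed at the floor in all 20 libraries, as were the widely expressed genes Col1a2 and Tap2, so no level is drawn from its entries.

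Across the cord, Cd8a tended to be higher in libraries with higher macrophage markers. Cd68, which encodes a lysosomal protein of macrophages, was at 45.2, 32.6, 31.9 and 13.1 FPKM at the lesion, in the order of animals used above, and at 1.61 to 3.31 in the rostral cord. In the 12 cord libraries, the Pearson r of log2 Cd8a with log2 Cd68 was 0.977. With the 12 macrophage and microglia markers r ran from 0.485 (Tmem119) to 0.977, with a median of 0.866. The r of Cd8a with Cd8b was 0.954, and Cd3e had no cord value above the floor. These libraries share animals and pool 3 regions, so the difference between the lesion and the other cord regions enters each r. The ratio of Cd8a to Cd68 was not constant. It was 0.114 to 0.173 in the lesions, 0.0619 to 0.12 rostrally, 0.0476 to 0.105 caudally and 0.505 in region 1 of stimulated animal 2. Among all genes outside the 9, those most like Cd8a in the cord were Clec7a, Cd68, Fabp4, RGD1559482 and Bcl2a1 (r from 0.974 to 0.98), and over all 20 libraries Cfd, Ifitm1, Fcna, Msr1 and Lilrb4 (r from 0.944 to 0.955); the likeness to Cd8a was added after its values were seen. The summed level of the 12 markers was 123 to 185 FPKM in region 3, 257 to 499 in region 4 and 254 to 303 in region 5, and 6 of the 12 were called higher in the lesion than rostrally, against 6.78% of all genes, with 0 lower. Their part in the Cd8a and Cd8b differences was not tested. Cd8a exceeded Cd8b by 1.28- to 2.31-fold in the 4 lesions. In region 1 the ratio of Cd8a to Cd8b was 3.40, 3.82, 1.86 and 6.16, in the same order of animals. Caudally it ran from 0.749 to 1.71, and rostral ratios rested on values near the floor.

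**Figure D3:**
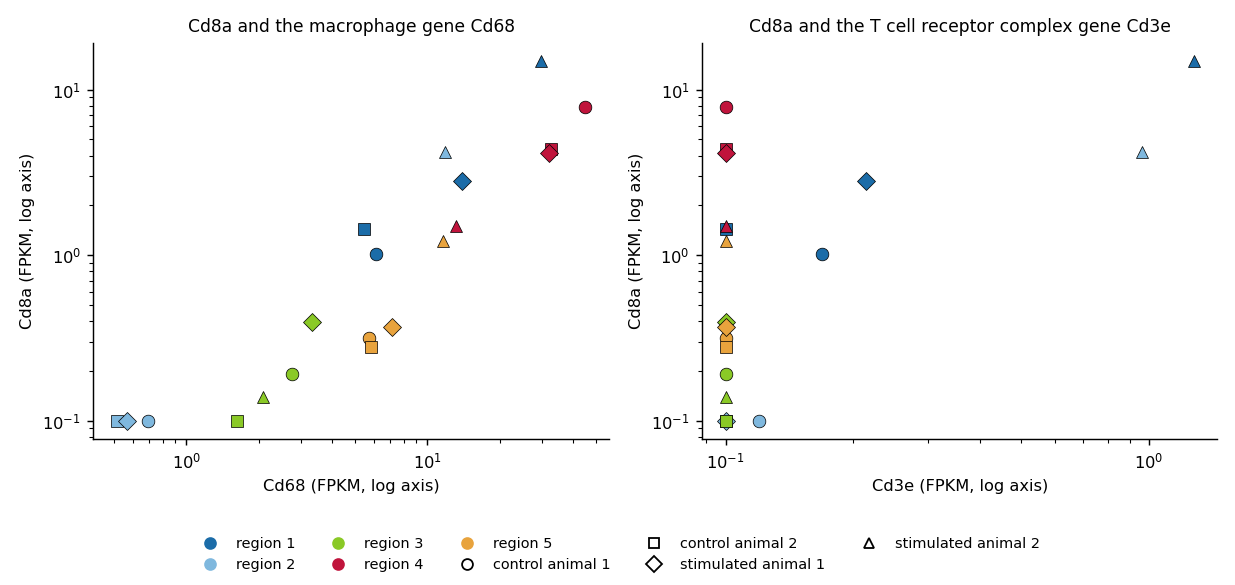
Cd8a against the macrophage gene Cd68 (left) and against Cd3e (right) in the 20 libraries, in FPKM on log axes; colour gives the region and shape the animal. Cd8a is higher where Cd68 is higher across the cord (r = 0.977 over 12 libraries, with the cord regions pooled). The 4 lesion libraries hold 1.49 to 7.82 FPKM of Cd8a with Cd3e at the floor.

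For the mean of Cd3e and Cd3d, the 5 genes most alike over the 20 libraries were Ccr6, the receptor for the chemokine Ccl20, with r = 0.989, AABR07051726.1, AABR07065772.2, Il6 and Il11, with r from 0.983 to 0.985. The mean was above the floor in 6 libraries, and without the 2 white matter libraries of stimulated animal 2 the r was 0.55 for Ccr6, 0.121 for Il6 and 0.402 for Il11, so the likeness rests on those libraries. Over the 12 cord libraries it rested on 1 library and no gene is named.

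Stimulation was compared with sham within each region, with 2 animals a group. In region 1 the stimulated animals were above both controls without overlap for Cd3e, Cd8a, Cd8b and Cd2, 4 of the 9 genes, where 21.2% of the genes tested did so. Since Cd3e and Cd2 had entered the tests through stimulated animal 2 itself and 3 of the 9 were not tested, nothing is read from this count. The log2 differences were 2.01 ± 0.99 (SE) for Cd3e, 2.42 ± 0.91 for Cd8a, 2.51 ± 0.33 for Cd8b and 2.21 ± 1.28 for Cd2, each with an adjusted p of 0.712. With stimulated animal 1 alone set against the controls, they were 0.72 ± 0.42 for Cd3e, 1.22 ± 0.33 for Cd8a, 2.17 ± 0.21 for Cd8b and 0.46 ± 0.13 for Cd2 (adjusted p from 0.427 to 0.596). At the lesion the stimulated animals were below both controls for Cd8a, by 1.24 ± 0.61 on the log2 scale (adjusted p = 1), and for Cd2, by 1.08 ± 0.06 (adjusted p = 0.193), 2 of 9 against 7.69%. Both stimulated values of Cd2 were at the floor, so its difference is a lower bound and its SE is narrowed by the floor. Cd2 had entered the tests through stimulated animal 2, so nothing is read from this count either. Caudally they were above both controls for Cd8a, by 1.18 ± 0.62, and Cd8b, by 1.07 ± 0.26 (both adjusted p = 1), 2 of 9 against 18.5%. On leaving out stimulated animal 2, the Cd8a difference was -0.50 at the lesion and 0.32 caudally, and that of Cd8b caudally was 0.81. That of Cd2 at the lesion stayed at -1.08, since both stimulated values were at the floor. In regions 2 and 3 every gene overlapped. By limma, 0 of the 9 genes passed in any region, where 0% of all genes passed in regions 1 to 4 and 0.0197% in region 5; at an unadjusted p under 0.05, 828, 215, 522, 341 and 546 of the 15210 genes did in regions 1 to 5. The difference of the Cd8a effect between lesion and caudal cord, taken within animals, was -2.42 ± 4.78 (adjusted p = 1), with 0% of genes passing. These differences were therefore not resolved with 2 animals a group.

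Other genes of the same cells were read from longer lists, of which the 4 genes with the highest mean level are described. Of 26 other T cell genes, 10 entered the tests. Between lesion and rostral cord, Lcp2, an adaptor of receptor signalling that myeloid cells also use, was higher by 1.58 ± 0.47 (adjusted p = 0.0254), and Bcl11b and Sh2d1a were lower by 0.72 ± 0.15 (adjusted p = 0.00321) and 0.65 ± 0.15 (adjusted p = 0.00675). Cd4, the coreceptor of helper T cells, was not called, in a fit that did not pair regions by animal. It was at 33, 6.53, 21 and 8.14 FPKM at the lesion against 9.93, 1.17, 6.64 and 3.42 rostrally, higher at the lesion in every animal. The median log2 difference of the 10 tested was 0.20, against -0.02 over all genes. Bcl11b, which cortical neurons also use, was at 6.6 to 12.3 FPKM in the white matter and 0.772 to 1.48 in the cord. Between lesion and caudal cord, and between regions 1 and 2, 0 of the 10 were called, against 7.99% and 8.61% of all genes.

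Of 15 other B and plasma cell genes, 6 entered the tests and 4 were higher at the lesion than rostrally, where 6.78% of all genes were, with 0 lower: Cd22, Blnk, Cd72 and Tnfrsf13c. Blnk, an adaptor of B cell receptor signalling, rose by 1.46 ± 0.38 (adjusted p = 0.0121), Cd22, an inhibitory lectin of B cells, by 2.70 ± 0.74 (adjusted p = 0.0173) and Cd72, an inhibitory coreceptor, by 2.16 ± 0.64 (adjusted p = 0.0249). At the lesion Cd22 was 2.73, 1.57, 3.15 and 1.17 FPKM in the animals that had Cd79b at 0.1, 0.1, 0.142 and 0.1, so that the receptor chain was at or near the floor in the libraries with the highest Cd22 of the cord. The median of the 6 was 1.48, against -0.02 over all genes, and the macrophage markers named above were higher in the same libraries; their part was not tested. Mzb1, which assists antibody secretion in plasma cells, was at the floor in all 4 lesions.

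Of 19 other cytotoxic and natural killer genes, 4 entered the tests and 5 were at the floor throughout. Cd244, a receptor of natural killer cells and some myeloid cells, was higher at the lesion than rostrally by 1.04 ± 0.24 (adjusted p = 0.00566). It was the only 1 called of the 4, against 19.6% of all genes. Klrd1 was at 3.44 to 7.47 FPKM at the lesion and 3.7 to 5.43 rostrally, Gzmm at 0.737 to 1.18 and 0.718 to 1.08, and Cst7 at 0.172 to 0.47 and 0.1 to 0.16. Of 20 genes for attraction and adhesion of T cells, 16 entered and 1, Itga4, was higher at the lesion than rostrally, against 6.78% of all genes. Cxcl16, a chemokine made by macrophages, was the only 1 of them called between regions 1 and 2 (1.96 ± 0.59, adjusted p = 0.0446), against 8.61% of all genes. Of 13 antigen presentation genes, 9 entered and 1, Cd86, was higher at the lesion, against the same 6.78%. With 1 gene called in each of these lists, nothing is read from the counts. B2m, the light chain of class I molecules, was at 215 to 383 FPKM at the lesion and 136 to 182 rostrally, a difference of 0.89 ± 0.40 (adjusted p = 0.124).

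**Figure D4:**
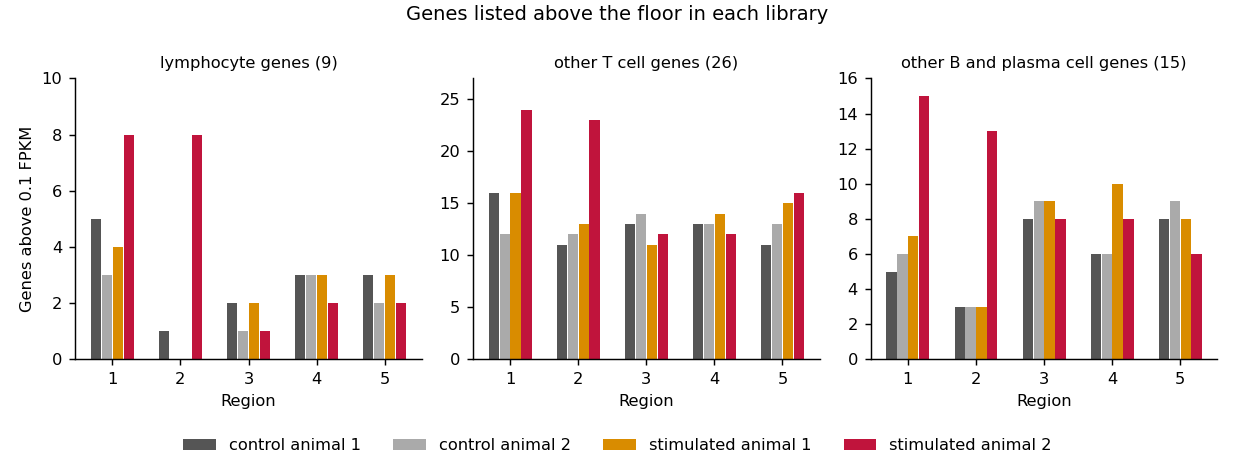
Number of genes above 0.1 FPKM in each library for the 9 lymphocyte genes, 26 other T cell genes and 15 other B and plasma cell genes, by region; each bar is 1 library and colour gives the animal. Stimulated animal 2 has 8 of the 9 genes above the floor in regions 1 and 2, and 2 or 3 are above it in each lesion.

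In the white matter of stimulated animal 2 genes of the other lists were high together with the 9 genes. At least 2-fold above the highest of the other 3 animals in both regions were 12 of 26 other T cell genes, 5 of 15 B and plasma cell genes, 2 of 19 cytotoxic genes, 12 of 20 attraction and adhesion genes and 8 of 13 antigen presentation genes, against 2.83% of all genes. The same held for 5 of 12 macrophage, 4 of 8 neutrophil, 2 of 6 dendritic cell and 3 of 6 fibroblast and meningeal markers, and for 0 of the endothelial, red blood cell, oligodendrocyte, astrocyte, Schwann cell and neuron markers. In region 2 alone more markers of other cells passed this limit, 11 of 12 for macrophages and microglia, 4 of 6 for fibroblasts and meninges, 2 of 4 for astrocytes and 1 of 4 for Schwann cells, against 5.58% of all genes. The part of these other cells in the levels of the 9 genes was not tested. Cxcl13, the chemokine that draws B cells into follicles, was at 208 FPKM in region 1 and 105 in region 2, against at most 13.8 in the other 6 white matter libraries. Cd74, the invariant chain of class II molecules, was at 118 and 384 FPKM, against at most 17.5, and the class II genes RT1-Da and RT1-Ba were at 40.2 and 98.3 and at 22.7 and 69.8. Mzb1 was at 4.84 and 11 FPKM, and at the floor in the other 6.

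Several antibody genes, chosen after their values were seen, showed the widest gaps. Igkc, the constant part of the kappa light chain, was at 285 and 1106 FPKM in regions 1 and 2 of stimulated animal 2, against at most 2.7 in the other 6 white matter libraries and at most 5.68 in the cord. Ighm, the heavy chain of IgM, was at 28.9 and 81.5, against at most 0.338 and at most 2.68. The kappa variable segment Igkv5-48 was at 1.86 and 19, against at most 0.103 in the other white matter. Not every antibody entry did so: Ighg and Ighv12-3 were at the floor in all 20 libraries. Igkv4-91 was above it only in the lesion of stimulated animal 1, at 0.233. Of T cell receptor segments, Trbv19 was at 0.512 and 0.257, against at most 0.133, and Trbv1 at 0.303 and 0.101, against the floor elsewhere. Trbv5 was at 0.106 in both regions, with 0.111 in region 1 of control animal 1. Trdv5 was above the floor only in region 1 of stimulated animal 2, at 0.125. Of the 9 genes in this animal, Cd3d and Cd79b were higher in region 2 than in region 1, and Cd3e, Cd3g, Cd8a, Cd8b, Cd2 and Cd5 were higher in region 1. Its 3 cord libraries had 0.995 to 3.15 FPKM of Igkc, within the range of 0.474 to 5.68 in the cord of the other animals. The variable segment Ighv2-7, at 25.4 and 47.2 FPKM in regions 1 and 2 of this animal, was at 0.309 in its rostral cord. It was at the floor in every library of the other animals.

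**Figure D5:**
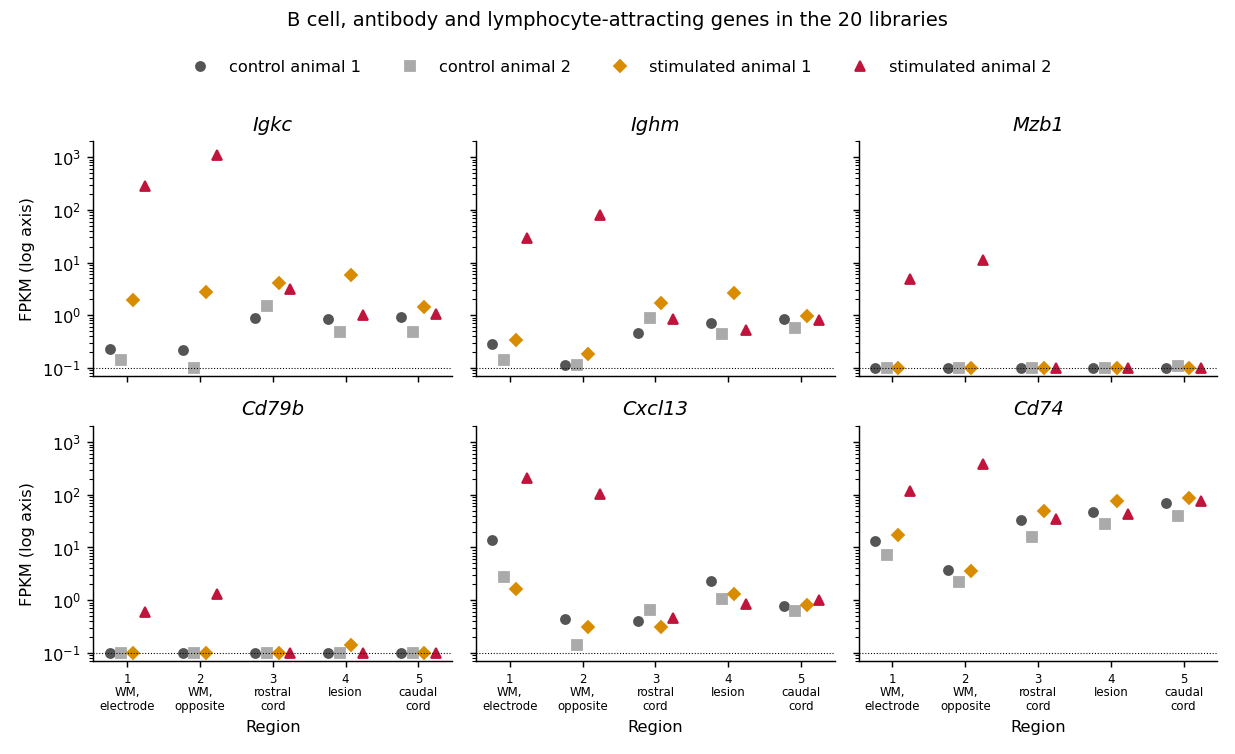
FPKM (log axis) of 6 genes of B cells, antibody production, lymphocyte attraction and antigen presentation in the 20 libraries; colour and shape give the animal, WM is white matter and the dotted line is the floor of 0.1. The 2 white matter libraries of stimulated animal 2 are the highest of all 20 for each gene, with Igkc at 285 and 1106 FPKM.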

How the data were processed

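RNA from 5 regions of 4 rats was sequenced as 51-bp read pairs after a stranded total-RNA preparation. Per the labels and the study's methods, the authors mapped reads to Rnor6 with TopHat 2.1.0 and estimated FPKM with Cufflinks 2.2.1; the deposited FPKM values had been raised to at least 0.1, and 39.7% of all values stood at this floor. Read counts per gene and library depths were not used here, so no precision from depth is given. Genes with at least 1 FPKM in any library were kept (15210 of 30443), log2 values were fitted with limma 3.58.1 (R 4.3.3, empirical Bayes with a trend, two-sided), and p-values were adjusted by Benjamini-Hochberg over all genes tested, with a threshold of 0.05. No pseudocount was added beyond the floor. Region comparisons used a mean per region over all 20 libraries, stimulation the 4 libraries of a region, and differences of effects the differences within animals. The limma fits were tested on simulated data. Values of 1 animal come from 1 library per region, and titles name the animal, so regions are paired by animal; deviations from group means correlated between paired regions at r = 0.229 (regions 4 and 3), -0.00262 (4 and 5), 0.0779 (5 and 3) and 0.651 (1 and 2). The 9 genes and the 16 further lists were chosen with earlier results of these data known. All 9 genes are named; from 5 lists the 4 genes of highest mean FPKM, and the 5 genes most like the mean of Cd3e and Cd3d. For genes with several entries the one with the highest mean was used. Alternatives were another pseudocount, filters, scalings, no trend, a mean per region and treatment, 1 model of all libraries, the replicate block, leaving out each animal and, chosen after seeing the data, the 12 spinal cord libraries alone. Promoter windows came from RefSeq, build GRCr8.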

Additional observations from a re-analysis of the deposited data

Results flagged for a closer look

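In 21 of the 27 groups of 4 libraries with any spread, 1 library lay farther from the others than Dixon's 95% limit; chance alone flags about 1 group in 20, and a single value above the floor is always flagged. Stimulated animal 2 accounted for 15 of them in the white matter. In region 1 these were Cd3e at 1.28 FPKM, Cd3d at 0.937, Cd3g at 0.398, Cd8a at 14.9, Cd2 at 1.88, Cd5 at 0.58 and Cd79b at 0.585. In region 2 they were Cd3e at 0.965 FPKM, Cd3d at 1.07, Cd3g at 0.224, Cd8a at 4.2, Cd8b at 1.18, Cd2 at 0.779, Cd5 at 0.416 and Cd79b at 1.32. In the cord the library apart was stimulated animal 2 for Cd8a in region 5 (1.22 FPKM), control animal 1 for Cd3d in region 5 (0.164) and Cd8b in region 3 (0.137), control animal 2 for Cd2 in region 3 (0.106), and stimulated animal 1 for Cd2 in region 5 (0.113) and Cd79b in region 4 (0.142).

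For Cd8a and Cd2 both stimulated animals were above both controls in region 1 and below both at the lesion. The stimulation effects in the 2 regions differed by 3.66 on the log2 scale for Cd8a and by 3.29 for Cd2; this difference was not tested. Without stimulated animal 2 the effects of Cd8a were 1.22 and -0.50, a gap of 1.72, and those of Cd2 were 0.46 and -1.08, a gap of 1.54. Both stimulated values of Cd2 at the lesion were at the floor, so the size of its effect there is a lower bound.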

How the results depend on the processing

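Of 302 alternative values of 25 log2 differences of single genes, 263 kept their direction and side of the threshold, 21 newly passed it, 12 no longer passed and 6 reversed. The reversals were the Cd8a difference between cord and white matter (0.79 without stimulated animal 2), between regions 4 and 1 (-0.38 without control animal 1) and between regions 3 and 2 (0.98 without stimulated animal 2), and for Cd8b between cord and white matter (-0.16 and -0.03 without control animal 1 or 2) and between regions 3 and 2 (0.18 without stimulated animal 2). On leaving out each animal in turn these differences ran from -0.86 to 0.79, from -0.38 to 1.71 and from -1.32 to 0.98 for Cd8a, and from -0.16 to 0.98 and from -1.16 to 0.18 for Cd8b. The number of the 9 genes called was 1 to 3 on leaving out each animal for lesion against rostral cord. The 3 were reached without stimulated animal 2, where Cd2 was added near the floor. For lesion against caudal cord it was 0 to 2 in that way, 1 with log2(FPKM + 1) or a mean per region and treatment, and 2 with the animal as replicate block or in the 12 cord libraries. For caudal against rostral cord it was 1 in the 12 cord libraries. For regions 1 and 2 it was 0 to 2 on leaving out an animal, 0 with log2(FPKM + 1), no filter or no trend, and 2 with a mean per region and treatment. For cord against white matter it was 0 to 3 on leaving out an animal and 0 with log2(FPKM + 1), no filter or at least 1 FPKM in 2 libraries. For stimulation, leaving out an animal left 1 library in a group. That library is assumed to vary like the other group, so no count is given. Cd3e, Cd3d, Cd2 and Cd79b had also entered the tests through the white matter of stimulated animal 2 alone. With the replicate number as block, 3 of the 9 genes and 443 of all genes passed in region 5 (Cd8a and Cd8b among them), against 0 and 3 without; control and stimulated animals share only a number, and their deviations correlated at r from -0.213 to 0.321 over the regions. The cause of these changes was not tested. Of the 9 genes, 3 were highest at the lesion by the median and 1 by the mean. Quantile normalization moved the median log2 difference of all genes from 0.18 to 0.04 between cord and white matter, from 0.06 to -0.05 between regions 1 and 2, and from -0.14 to -0.03 between lesion and caudal cord, where it changed the 142 higher and 1074 lower calls to 195 and 275. The reads behind a value near the floor were not used here.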
